A study of Mus musculus with 18 samples.

Results

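The genes described here are *Nfe2l2*, which encodes the transcription factor NRF2, *Keap1*, which encodes its repressor, and 8 genes known as NRF2 targets outside glutathione metabolism: *Nqo1*, *Srxn1*, *Txnrd1*, *Txn1*, *Prdx1*, *Osgin1*, *G6pdx* and *Pgd*. They were chosen by gene symbol, and all 10 had a row among the 37303 genes of the liver RNA-Seq table. The 18 livers came from WT, Gcn2-/- and Atf4-/- mice on a C57BL/6J background, each given PBS or asparaginase (ASNase, an enzyme drug that depletes circulating asparagine and, less strongly, glutamine), with 3 mice in each of the 6 groups. ASNase was injected into the peritoneum daily for 8 days at 3 IU per g of body weight, and livers were taken 7.5 h after injection at an age of 8 to 16 weeks by the labels (8 to 12 weeks by the growth protocol). Both deletions were homozygous and present in the whole body, so the liver cannot be told apart from other organs as the origin of a difference. Every group held both sexes, with 1 male of 3 in WT PBS and both Gcn2-/- groups and 2 males of 3 in the others.

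NRF2 is made continuously and, in unstressed cells, is bound by KEAP1, which presents it to a CUL3 ubiquitin ligase for degradation. Oxidants and electrophiles modify cysteines of KEAP1, so that NRF2 escapes, pairs with a small MAF protein and binds antioxidant response elements (AREs) near its targets. In the liver these targets supply thioredoxin, peroxiredoxin and NADPH and detoxify quinones and drugs. Since NRF2 is governed mainly at the level of the protein, the mRNA levels below do not measure its activity.

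The core of the ARE, TGACNNNGC on either strand, was searched in RefSeq promoter windows that run from 250 bases before to 50 bases after a start site. The following 6 stretches are shown because they hold the matches found in the windows of the 10 genes. Each is written 5′ to 3′ on the strand of its gene in GRCm38.p6, with the match in capitals.
Nfe2l2, chr2:75704885-75704913, minus strand: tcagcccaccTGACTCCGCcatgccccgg
Srxn1, chr2:152105542-152105570, plus strand: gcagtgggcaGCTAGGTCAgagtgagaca
Txnrd1, chr10:82859104-82859132, plus strand: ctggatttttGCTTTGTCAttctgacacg
Prdx1, chr4:116685456-116685484, plus strand: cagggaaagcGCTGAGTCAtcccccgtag
G6pdx, chrX:74428919-74428947, minus strand: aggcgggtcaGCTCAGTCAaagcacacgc
Pgd, chr4:149166061-149166089, minus strand: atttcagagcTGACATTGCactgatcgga

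The core was thus found for 6 of the 10 genes, against 13.99% of the 27025 genes with a window and 12.4% of the 32851 windows. The match lay on the gene strand in *Nfe2l2* and *Pgd* and on the other strand in *Srxn1*, *Txnrd1*, *Prdx1* and *G6pdx*. The *Prdx1* match, read on its own strand as TGACTCAGC, also contains the AP-1 letters TGACTCA. *Txnrd1* has 3 windows and *Pgd* has 2, and each held the core in its second window only. The windows of *Keap1*, *Nqo1*, *Txn1* and *Osgin1* held none of these letters, which says nothing of sites elsewhere; the *Osgin1* window lies inside the gene as GENCODE draws it. The CEBP-ATF response element, TGATGNAA on either strand, a site that ATF4 can bind with a C/EBP partner, was in 0 of the 10 genes and in 4.51% of all genes with a window. A match is a description of letters, and binding was not measured.

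**Figure D1:**
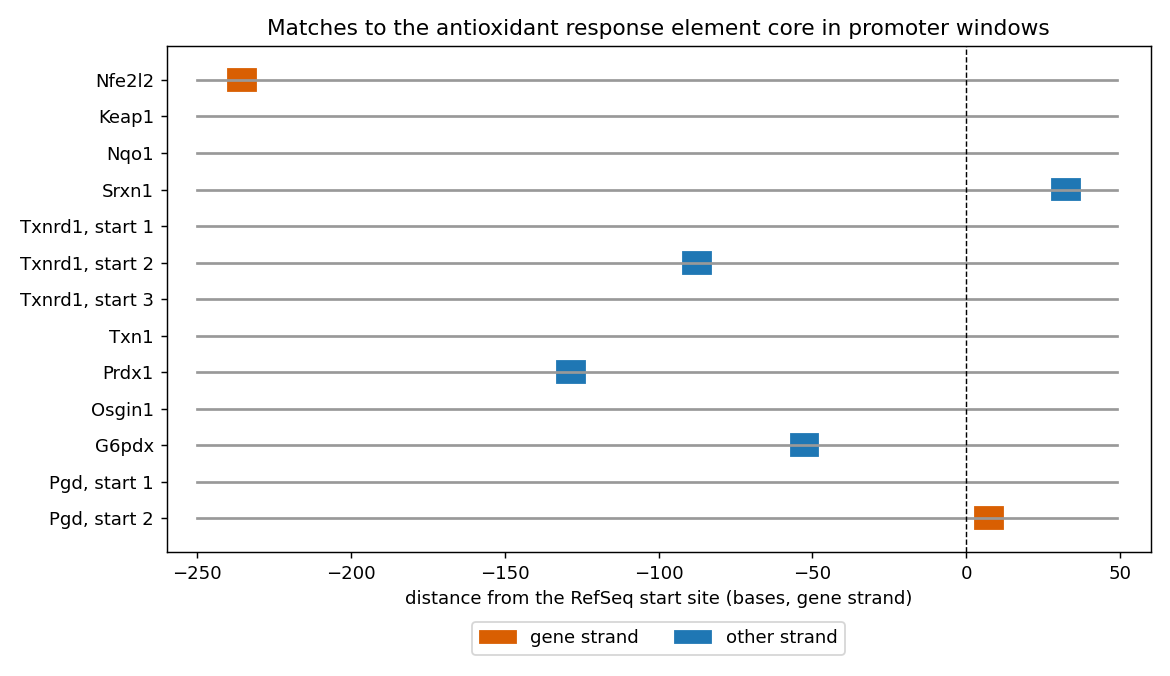
Position of each match to the ARE core in the RefSeq promoter windows, in bases from the start site; grey lines are the 13 windows and boxes the 9-base matches, coloured by strand. The 6 matches are scattered from -240 in *Nfe2l2* to 28 in *Srxn1*, at no shared distance from the start.

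The table held 1 value per gene and group, in FPKM (a fragment count scaled by transcript length and library size), which Cuffdiff estimated from the 3 libraries of a group together, with an interval for its error. Replicate values were not in this table, so no difference below has a replicate check or a p-value, and the read count behind each value is unknown. The study states the depth of each library, which was not used here. Differences are given as log2(FPKM + 0.1), which understates the changes of low genes. A gene was called when either value was over 3 FPKM, the log2 difference exceeded 1.5 and the 2 intervals were separate. The combined error given with a log2 difference is the root of the summed squared half-widths of the 2 intervals on that scale. All 60 values of the 10 genes had the status OK.

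The targeted genes and marker genes were examined first. *Atf4* was listed at 32.3 and 29.3 FPKM in the Atf4-/- groups and at 50.4 to 68.1 FPKM in the other 4. By contrast, the study reports from plots of read density that *Atf4* was absent in these knockout mice. Where in the locus the reads behind the listed values lie was not tested, so these values do not show a remaining transcript. *Eif2ak4*, which encodes GCN2, lay between 2.19 and 3.14 FPKM in all 6 groups and did not separate the Gcn2-/- groups; that deletion removes an exon, which a value for the whole gene need not show. The summed level of the 8 hepatocyte markers with an estimate (of 10) was 16479 to 20704 FPKM in the PBS groups and WT ASNase. It was 11881 in Gcn2-/- ASNase and 9026 in Atf4-/- ASNase. The markers left out were *Alb*, not eligible in any ASNase comparison, and *Fgb*, eligible in that of WT livers alone. These 8 markers did not move together. With ASNase 3 were higher and 5 lower in Gcn2-/- livers (median log2 difference -0.12), and 2 were higher and 6 lower in Atf4-/- livers (-0.89). In either strain 0 were called, but combined errors reached 8.37 (*Cyp2e1*), so the lack of calls does not show unchanged levels. The lower sums came mostly from *Ttr*, *Apoa1* and *Cyp2e1*, whereas *Tat* was 613 and 1987 FPKM in the Gcn2-/- and 952 and 2013 FPKM in the Atf4-/- groups, and *Hnf4a* differed by -0.03 and 0.37 on the log2 scale. Summed macrophage markers (7 of 8 symbols had a row) were between 163 and 356 FPKM. The symbol without a row, *Adgre1*, is another name of *Emr1*, which had one. Erythroid markers (3 of 5) were 80.6 and 8.35 FPKM in Gcn2-/- livers with PBS and ASNase and 110 and 4.28 FPKM in Atf4-/- livers. The 6 skeletal muscle markers reached 601 and 864 FPKM in the WT groups against at most 95.6 FPKM elsewhere. The sums of 6 cholangiocyte, 5 endothelial and 6 stellate cell markers were 20.1 to 39.9, 50.8 to 110 and 85.4 to 138 FPKM. The 6 neutrophil markers summed to 1.63 to 15.5 FPKM, with *Ly6g* listed at 0 in 5 of the 6 groups. In whole liver, fewer cells of a type and less RNA per cell cannot be told apart, and the part of cell composition in the results below was not tested.

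Of the 10 genes, *Osgin1* alone met the call in any of the 9 comparisons between groups, and it did so once, in Gcn2-/- livers after ASNase. The share of all genes called ran from 0.881% to 8.25% by comparison. *Nfe2l2* and *Keap1* varied least, *Nqo1* had its 3 lowest values in Gcn2-/- ASNase and both Atf4-/- groups without a separate interval, and *Prdx1* was the most abundant. Across the 6 groups the highest level was 5.31 times the lowest for *Osgin1*, 2.30 times for *Nqo1* and 2.22 times for *Prdx1*, and between 1.33 and 1.92 times for the other 7. Over all 9815 genes that reached 3 FPKM this ratio had a median of 1.81, with quartiles of 1.48 and 2.63.

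**Figure D2:**
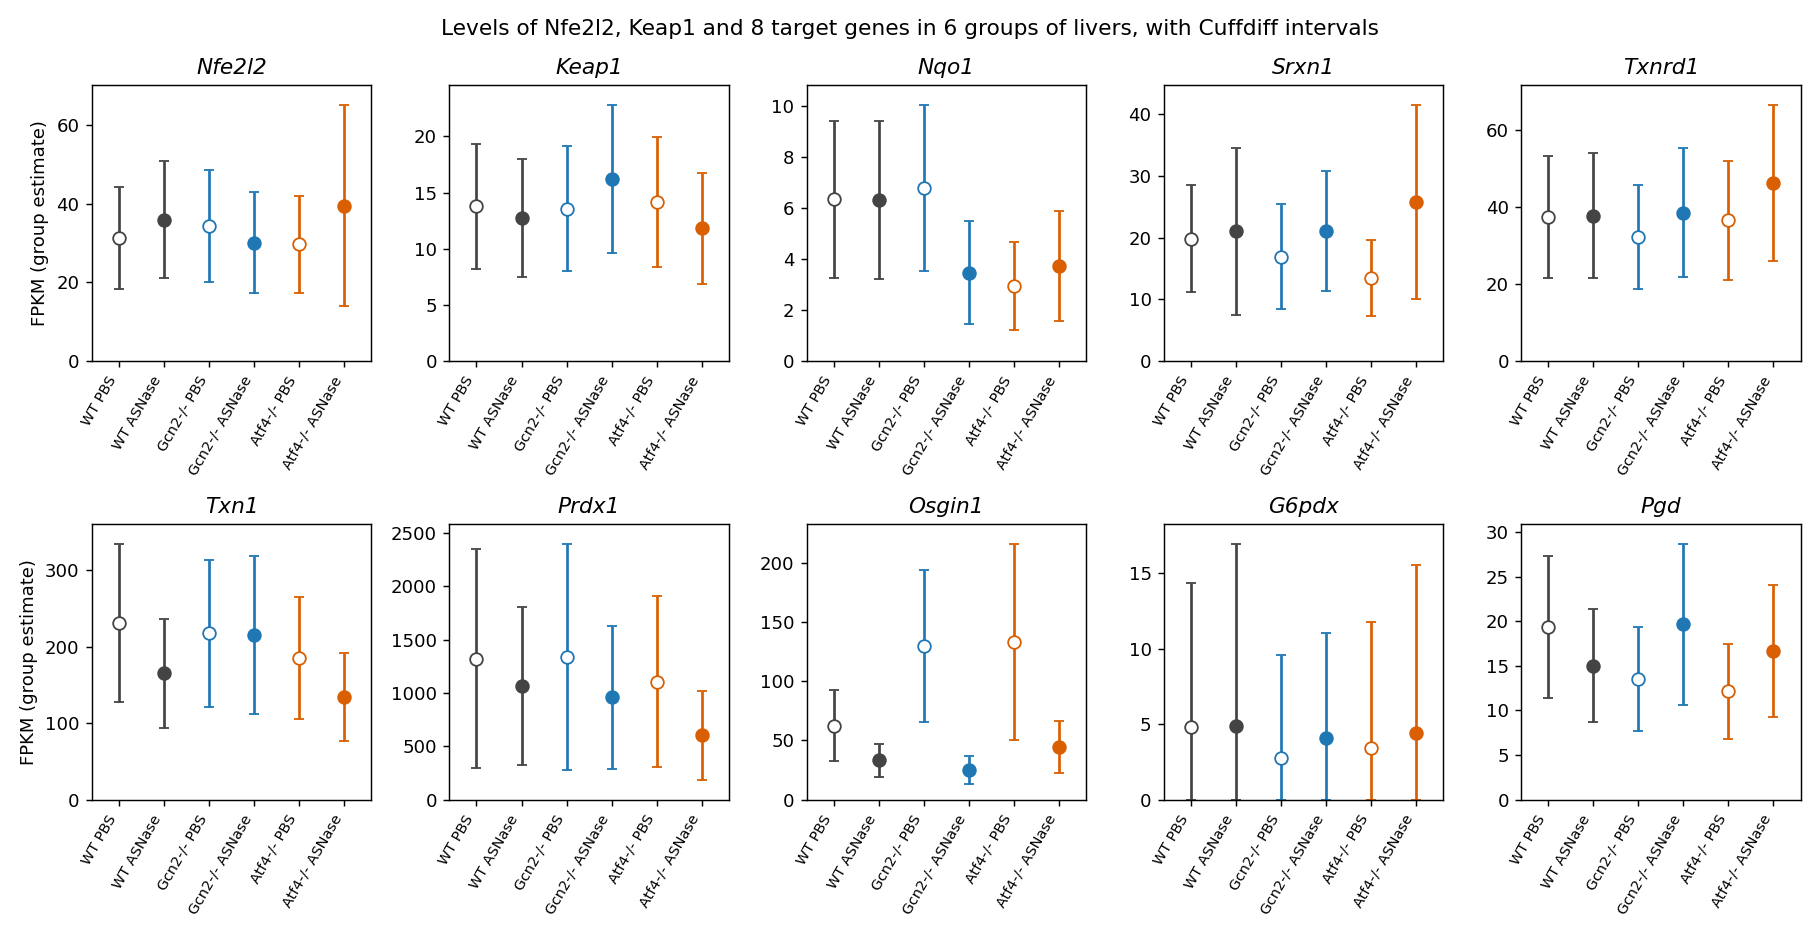
FPKM of each gene in the 6 groups on linear axes from 0; points are Cuffdiff's group estimates and bars its intervals, open for PBS and filled for ASNase, with WT in grey, Gcn2-/- in blue and Atf4-/- in orange. Only *Osgin1* has groups whose bars do not overlap, and *G6pdx* bars reach 0 in every group.

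*Nfe2l2* (ENSMUSG00000015839, chr2:75675513-75704641, minus strand in GRCm38) encodes NRF2. Livers of PBS mice held 31.3 FPKM (interval 18.3 to 44.3) if WT, 34.3 (20.1 to 48.5) if Gcn2-/- and 29.7 (17.4 to 41.9) if Atf4-/-. After ASNase it was 35.9 (21.0 to 50.9), 30.0 (17.2 to 42.8) and 39.5 (14.01 to 64.9) in the same order. All 15 pairs of groups overlapped, and ASNase minus PBS gave log2 differences of 0.20 (combined error 0.90) for WT, -0.19 (0.91) for Gcn2-/- and 0.41 (1.27) for Atf4-/- livers. With intervals of this width a median 2.43-fold change would have been needed for separation.

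*Keap1* (ENSMUSG00000003308, chr9:21229730-21239361, minus strand) encodes the adaptor that holds NRF2 for degradation. Under PBS and ASNase, in that order, it was listed at 13.8 and 12.7 FPKM for WT, 13.6 and 16.2 FPKM for Gcn2-/- and 14.2 and 11.8 FPKM for Atf4-/- livers. Its highest interval (9.64 to 22.8) and its lowest (6.89 to 16.7) overlapped, as did all pairs. The annotation places the antisense gene *Gm16754* over 510 of its 4693 exon bases, and the library kit does not record strand, so reads of that stretch cannot be assigned. The ratio of *Nfe2l2* to *Keap1*, both in FPKM, went with ASNase from 2.28 to 2.82 for WT, from 2.53 to 1.85 for Gcn2-/- and from 2.09 to 3.34 for Atf4-/- livers. The ratio was thus highest and lowest in the treated knockout groups, without an interval of its own to set it against.

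The 13 listed genes that control NRF2 gave 0 calls in each of the 3 ASNase comparisons, with 12 eligible in each. The shares of all genes called were 0.881% for WT, 3.69% for Gcn2-/- and 7.37% for Atf4-/- livers. The listed genes included small MAF partners, the competitor *Bach1*, a related transcription factor, a kinase, ligase subunits and proteins that bind KEAP1. Their median log2 difference was 0.13 for WT, -0.00137 for Gcn2-/- and 0.43 for Atf4-/- livers, where the median of all genes tested was -0.00648, 0.0172 and 0.0777. In Atf4-/- livers 10 of the 12 were on the higher side, as were 5102 of all 9485 genes. *Mafk*, a small MAF partner of NRF2, was listed there at 4.80 FPKM under PBS and 14.9 FPKM after ASNase (log2 difference 1.61, combined error 1.35, intervals overlapping). *Sqstm1*, whose product p62 binds KEAP1, was at 230 and 479 FPKM in the same groups and between 228 and 250 FPKM in the other 4 (1.06, combined error 1.66). *Syvn1*, a ligase gene of the list, was at 19.5 FPKM in Atf4-/- PBS and 40.9 FPKM in Atf4-/- ASNase (1.06, combined error 1.33). The competitor *Bach1* was at 9.46 and 16.5 FPKM in these groups (0.79, combined error 1.07). *Mafk*, *Sqstm1*, *Syvn1* and *Bach1* were named after their values were seen.

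*Nqo1* (ENSMUSG00000003849, chr8:107388225-107403206, minus strand), the quinone reductase commonly read as an NRF2 target, was low in this tissue. In WT livers it was listed at 6.34 FPKM (3.25 to 9.42) with PBS and 6.30 (3.20 to 9.41) with ASNase. The PBS and ASNase values were 6.78 (3.54 to 10.03) and 3.46 (1.43 to 5.49) in Gcn2-/- livers, and 2.94 (1.22 to 4.67) and 3.72 (1.57 to 5.87) in Atf4-/- livers. The values fell into an upper 3 and a lower 3, the lower being Gcn2-/- ASNase and both Atf4-/- groups, but the intervals of all 15 pairs overlapped. The log2 difference was -0.95 (combined error 1.19) for ASNase in Gcn2-/- livers, and Atf4-/- PBS differed by -1.08 (1.19) from WT PBS and by -1.18 (1.18) from Gcn2-/- PBS. The last is the largest log2 difference of any gene of the set other than *Osgin1*. A median 3.34-fold change would have been needed to separate these intervals.

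*Osgin1* (ENSMUSG00000074063, chr8:119434124-119446256, plus strand) encodes an oxidative stress-induced growth inhibitor. Under PBS it was listed at 62.4 FPKM (32.3 to 92.4) in WT, 130 (65.7 to 194) in Gcn2-/- and 133 (50.3 to 216) in Atf4-/- livers. After ASNase the levels were 33.4 (19.5 to 47.3), 25.1 (13.5 to 36.6) and 44.4 (22.6 to 66.1) in the same order. Every ASNase value lay below every PBS value, and the interval of Gcn2-/- ASNase was separate from those of both knockout PBS groups. The interval of WT ASNase was also separate from both knockout PBS groups, which makes 4 of 15 pairs.

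In Gcn2-/- livers *Osgin1* fell 5.19-fold after ASNase, a log2 difference of -2.37 (combined error 1.06), and was called. Between these groups 0 of the 8 hepatocyte markers were called, with a median log2 difference of -0.12. Their combined errors ran from 1.26 (*Hnf4a*) to 8.37 (*Cyp2e1*), so few could have been called. *Ttr* (-1.501), *Apoa1* (-1.69) and, upward, *Tat* (1.70) passed the fold limit with overlapping intervals. *Osgin1* was 1 of 10 genes of the set. Of the 9218 genes tested, 3.69% were called, 2.13% were called lower and 8.69% differed by more than their combined error. In Atf4-/- livers the PBS level was 3.00 times the ASNase level (log2 difference -1.58, combined error 1.30), larger than the error as for 14.8% of all genes, but the interval of the PBS group began at 50.3 FPKM and that of the ASNase group ended at 66.1 FPKM. That comparison therefore called 0 of the 10 genes, against 7.37% of 9485 genes. In WT livers the difference was -0.90 (combined error 0.99), within the error that 1.7% of all genes exceeded, and again 0 of the 10 genes were called, against 0.881% of 9084.

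The differences of *Osgin1* under PBS were positive in both knockouts and within their errors, at 1.06 (combined error 1.09) for Gcn2-/- and 1.09 (1.29) for Atf4-/- against WT. The comparisons under PBS called 0 of the 10 genes, where 1.04% of all genes were called in Gcn2-/- and 1.12% in Atf4-/- livers against WT, and 0.976% between the knockouts. After ASNase the knockouts were at -0.41 (0.96) and 0.41 (1.001) against WT for *Osgin1*, with 0 of the 10 genes called against 4.41% of all genes for Gcn2-/- and 8.25% for Atf4-/- livers; between the treated knockouts it was 0 of 10 against 3.19%. The change after ASNase in Gcn2-/- livers minus that in WT was -1.47, and the combined error of the 4 values was 1.45. That is past the error and short of the limit of 1.5, so by the rule 0 of the 10 genes responded differently in any of the 3 pairs of strains. Of all genes, 3.87% did so between Gcn2-/- and WT, 6.21% between Atf4-/- and WT and 3.37% between the knockouts. These comparisons share groups, and a low WT PBS or a high knockout PBS value enters several of them.

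**Figure D3:**
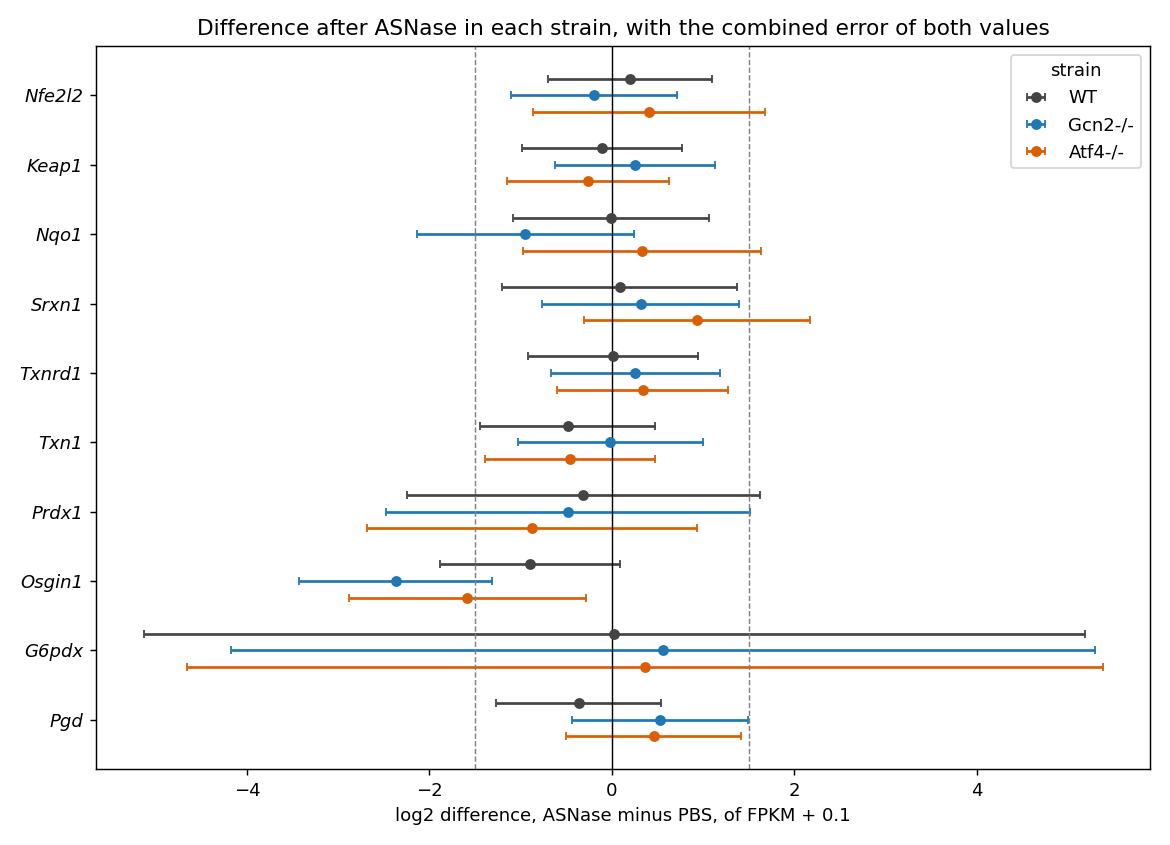
Log2 difference of FPKM + 0.1 between ASNase and PBS for each gene in WT (grey), Gcn2-/- (blue) and Atf4-/- (orange) livers; bars are the combined error of both values and dashed lines the limit of 1.5. The *Osgin1* bars of both knockouts lie wholly below 0, at -2.37 and -1.58, and the bars of the other 9 genes cross 0 in all 3 strains.

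Of the 4 genes of the thioredoxin branch, 0 were called in any comparison, where between 0.881% and 8.25% of all genes were called. *Txn1* (ENSMUSG00000028367, chr4:57943373-57956411, minus strand), the cytosolic thioredoxin that reduces protein disulfides, was listed under PBS at 231 FPKM (128 to 334) in WT, 218 (122 to 314) in Gcn2-/- and 186 (105 to 266) in Atf4-/- livers. After ASNase it was 166 (94.2 to 237), 215 (112 to 318) and 135 (77.4 to 193). The 2 lowest values were WT ASNase and Atf4-/- ASNase, with log2 differences of -0.48 (combined error 0.96) and -0.46 (0.93) from PBS, and in Gcn2-/- livers it was -0.02 (1.02).

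*Txnrd1* (ENSMUSG00000020250, chr10:82833951-82897712, plus strand), the selenoenzyme that reduces thioredoxin with NADPH, was listed, for PBS then ASNase, at 37.4 and 37.8 FPKM in WT, 32.2 and 38.6 FPKM in Gcn2-/- and 36.5 and 46.2 FPKM in Atf4-/- livers. The intervals of the highest group (25.998 to 66.4) and the lowest (18.7 to 45.8) overlapped. The FPKM ratio of *Txn1* to *Txnrd1*, substrate to reductase, was 2.92 for Atf4-/- ASNase and 4.38 to 6.75 for the other 5 groups.

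*Prdx1* (ENSMUSG00000028691, chr4:116685544-116700822, plus strand), the peroxiredoxin that removes peroxide at the cost of thioredoxin, ranked between 61 and 181 among all genes by FPKM. Its levels under PBS were 1323 FPKM (299 to 2348) in WT, 1337 (278 to 2397) in Gcn2-/- and 1108 (305 to 1911) in Atf4-/- livers. After ASNase they were 1066 (323 to 1809), 959 (286 to 1631) and 603 (186 to 1021). Each ASNase value was below each PBS value, yet all intervals overlapped, and the log2 differences of -0.31 (combined error 1.94), -0.48 (1.998) and -0.88 (1.81) were within their errors. A median change of 5.98-fold would have been needed to separate them.

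*Srxn1* (ENSMUSG00000032802, chr2:152105516-152111376, plus strand), the sulfiredoxin that restores over-oxidized peroxiredoxins, was listed under PBS at 19.9 FPKM (11.2 to 28.5) in WT, 16.9 (8.35 to 25.5) in Gcn2-/- and 13.4 (7.28 to 19.6) in Atf4-/- livers. After ASNase it was 21.0 (7.50 to 34.6), 21.1 (11.3 to 30.8) and 25.8 (10.1 to 41.5). The 3 ASNase values were the 3 highest, with the widest step in Atf4-/- livers (log2 difference 0.93, combined error 1.24), and all pairs overlapped. The FPKM ratio of *Prdx1* to *Srxn1* was lower with ASNase in each strain, at 66.7 and 50.6 for WT, 79.1 and 45.5 for Gcn2-/- and 82.4 and 23.4 for Atf4-/- livers.

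Among the 14 relatives of these enzymes (mitochondrial thioredoxin and its reductase, the other peroxiredoxins, glutaredoxin, *Nqo2* and others), 0 were called after ASNase in WT and in Gcn2-/- livers and 2 were called lower in Atf4-/- livers, where 7.37% of all genes were called. *Nqo2*, a quinone reductase related to NQO1, was listed at 29.3 FPKM (13.8 to 44.7) in Atf4-/- PBS and 3.48 (0 to 7.29) in Atf4-/- ASNase, a log2 difference of -3.04. Its combined error of 3.22 is larger than the difference, because the second interval reaches 0. By that measure the lower calls in Atf4-/- livers number 1. In Gcn2-/- livers *Nqo2* was 37.2 FPKM (18.2 to 56.2) under PBS and 11.8 (3.17 to 20.5) after ASNase, with overlapping intervals. The log2 difference there was -1.64 (combined error 1.56), past both the error and the fold limit. With the combined error in place of separate intervals, *Nqo2* would thus be called lower in Gcn2-/- livers and not in Atf4-/- livers. *Glrx*, a glutaredoxin, was 32.1 FPKM (18.9 to 45.2) in Atf4-/- PBS and 10.6 (5.78 to 15.5) in Atf4-/- ASNase, a log2 difference of -1.58 (combined error 0.94). In Gcn2-/- livers its difference had the other sign, at 0.35 (combined error 0.94). Over the 14 the median log2 difference was -0.12 for WT, -0.30 for Gcn2-/- and -0.37 for Atf4-/- livers.

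The oxidative steps of the pentose phosphate pathway supply NADPH to these enzymes. *G6pdx* (ENSMUSG00000031400, chrX:74409483-74429194, minus strand), the first of them, was listed, again for PBS then ASNase, at 4.79 and 4.87 FPKM in WT, 2.75 and 4.09 FPKM in Gcn2-/- and 3.43 and 4.44 FPKM in Atf4-/- livers. Every interval began at 0 and the median half-width was 245% of the value, so no difference could have separated. The locus given in the table, chrX:74393290-74453854, runs past the annotated gene over *Ikbkg* on the opposite strand, which shares 418 of the 3080 *G6pdx* exon bases and was listed at 23.2 to 36.3 FPKM. Since strand is not recorded, the *G6pdx* values are uncertain.

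*Pgd* (ENSMUSG00000028961, chr4:149149991-149166771, minus strand), the phosphogluconate dehydrogenase of the same route, was measured more tightly. Under PBS it was 19.4 FPKM (11.4 to 27.4) in WT, 13.6 (7.75 to 19.4) in Gcn2-/- and 12.1 (6.81 to 17.4) in Atf4-/- livers, and after ASNase 15.001 (8.66 to 21.3), 19.6 (10.6 to 28.6) and 16.7 (9.28 to 24.1). The log2 difference after ASNase was -0.37 (combined error 0.90) in WT and 0.53 (0.97) and 0.46 (0.96) in the knockouts, of opposite sign and all within error. Of the 7 other genes of the pathway 6 were eligible, and 0 were called in any strain after ASNase. The shares of all genes called were 0.881% for WT, 3.69% for Gcn2-/- and 7.37% for Atf4-/- livers. *G6pd2* was listed at 0 in all groups.

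Other targets of NRF2 were set beside these genes. Of 22 further targets outside glutathione metabolism, 1 was called higher and 0 lower in WT (20 eligible), 1 higher and 1 lower in Gcn2-/- (19 eligible) and 1 higher and 4 lower in Atf4-/- livers (19 eligible), where 0.881%, 3.69% and 7.37% of all genes tested were called. The median log2 difference was 0.00171, -0.61 and -0.76 in the same order. The 19 glutathione targets were genes of glutathione synthesis and reduction, transferases, a peroxidase and transporters. Of them, 0 of 16 eligible were called in WT, 5 of 16 lower in Gcn2-/- and 6 of 15 lower in Atf4-/- livers. These counts stand against the same shares of all genes, and the medians were -0.06, -1.40 and -1.48. For the 10 genes these medians were -0.06, 0.12 and 0.33. The lists were compared by counts and medians alone.

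*Hmox1*, which encodes the heme-degrading heme oxygenase, was the one target of these lists called higher in both knockouts. It was listed at 13.0 FPKM (7.30 to 18.8) in Gcn2-/- PBS and 40.3 (23.1 to 57.5) in Gcn2-/- ASNase, and at 14.7 (8.27 to 21.0) and 55.3 (32.1 to 78.5) in the Atf4-/- groups. Both WT groups were close to the PBS level, at 14.5 and 14.6 FPKM. The log2 differences were 1.62 (combined error 0.94), 1.91 (0.93) and 0.02 (0.94) in Gcn2-/-, Atf4-/- and WT livers. *Hmox1* is also expressed by macrophages, whose 7 markers with a row had a median log2 difference of 0.43 in Gcn2-/- livers (4 higher, 3 lower) and -1.24 in Atf4-/- livers (1 higher, 6 lower). One of them, *Marco*, a scavenger receptor, was called higher in both, with differences of 3.80 and 2.85, and *Cd5l* was called lower in Atf4-/- livers (-1.55). The part of macrophages in the *Hmox1* values was not tested.

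The called targets on the lower side were enzymes of NADPH supply and drug metabolism. *Me1*, the NADPH-making malic enzyme, was lower in Gcn2-/- livers (54.7 FPKM under PBS, 17.1 after ASNase, log2 difference -1.67) and was 36.2 and 33.4 FPKM in the Atf4-/- groups. Its Atf4-/- PBS level (20.3 to 52.2) was already below WT PBS (103 FPKM, 55.1 to 151), with separate intervals. *Idh1*, which makes NADPH from isocitrate, was called in Atf4-/- livers, from 178 to 38.2 FPKM, a difference of -2.22. *Ces1g*, a carboxylesterase, went from 57.1 to 4.32 FPKM in Atf4-/- livers (-3.69) and *Aox1*, an aldehyde oxidase, from 14.3 to 4.01 FPKM (-1.80). In Gcn2-/- livers *Aox1* went from 10.6 to 3.84 FPKM, with separate intervals and a difference of -1.44 (combined error 0.96) just under the limit. *Idh1* differed there by -1.18 (1.13) and *Ces1g* by -0.94 (0.95), with overlapping intervals. *Cbr1*, a carbonyl reductase, is named to complete the 4 lower calls in Atf4-/- livers, where it went from 68.9 to 21.7 FPKM (-1.66). In Gcn2-/- livers *Cbr1* was not called, at -0.47 (combined error 0.91). In WT livers these 5 genes had differences from -0.38 to -0.00365.

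*Aldh3a1*, an aldehyde dehydrogenase, was the one target called in WT livers, at 0.106 FPKM (0 to 0.365) under PBS and 9.33 (4.37 to 14.3) after ASNase. It was at most 0.278 FPKM in the 4 knockout groups. Its log2 difference of 5.52 rests on a value near 0 and became 3.22 with a pseudocount of 1.

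Among glutathione targets, the transferase *Gsta4* was listed at 75.3 FPKM in Gcn2-/- PBS and 9.54 in Gcn2-/- ASNase (log2 difference -2.97), and at 40.3 and 2.91 FPKM in the Atf4-/- groups (-3.74). *Gsta2* differed by -3.90 in Gcn2-/- and -3.16 (combined error 2.44) in Atf4-/- livers. Its Atf4-/- PBS level, 10.4 FPKM (4.74 to 16.0), was already below WT PBS (46.8 FPKM, 25.9 to 67.7), with separate intervals. In Atf4-/- ASNase it was near 0, at 1.07 FPKM (0 to 2.25). *Gclc*, the catalytic subunit of glutamate-cysteine ligase in glutathione synthesis, went from 68.0 to 21.5 FPKM (-1.66) and from 72.3 to 16.8 FPKM (-2.10). All 3 genes were called in both knockouts. Their log2 differences in WT livers were -0.05, 0.42 and -0.11. *Gstm1* was called in Gcn2-/- livers alone (-2.34, and -1.73 with overlapping intervals in Atf4-/-), and *Gsta3* and *Gstp1* in Atf4-/- livers alone (-2.71 and -3.15, and -1.60 and -0.82 in Gcn2-/-). The hepatocyte markers had medians of -0.12 in Gcn2-/- and -0.89 in Atf4-/- livers. With their wide intervals 0 were called, and their part in these differences was not tested.

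**Figure D4:**
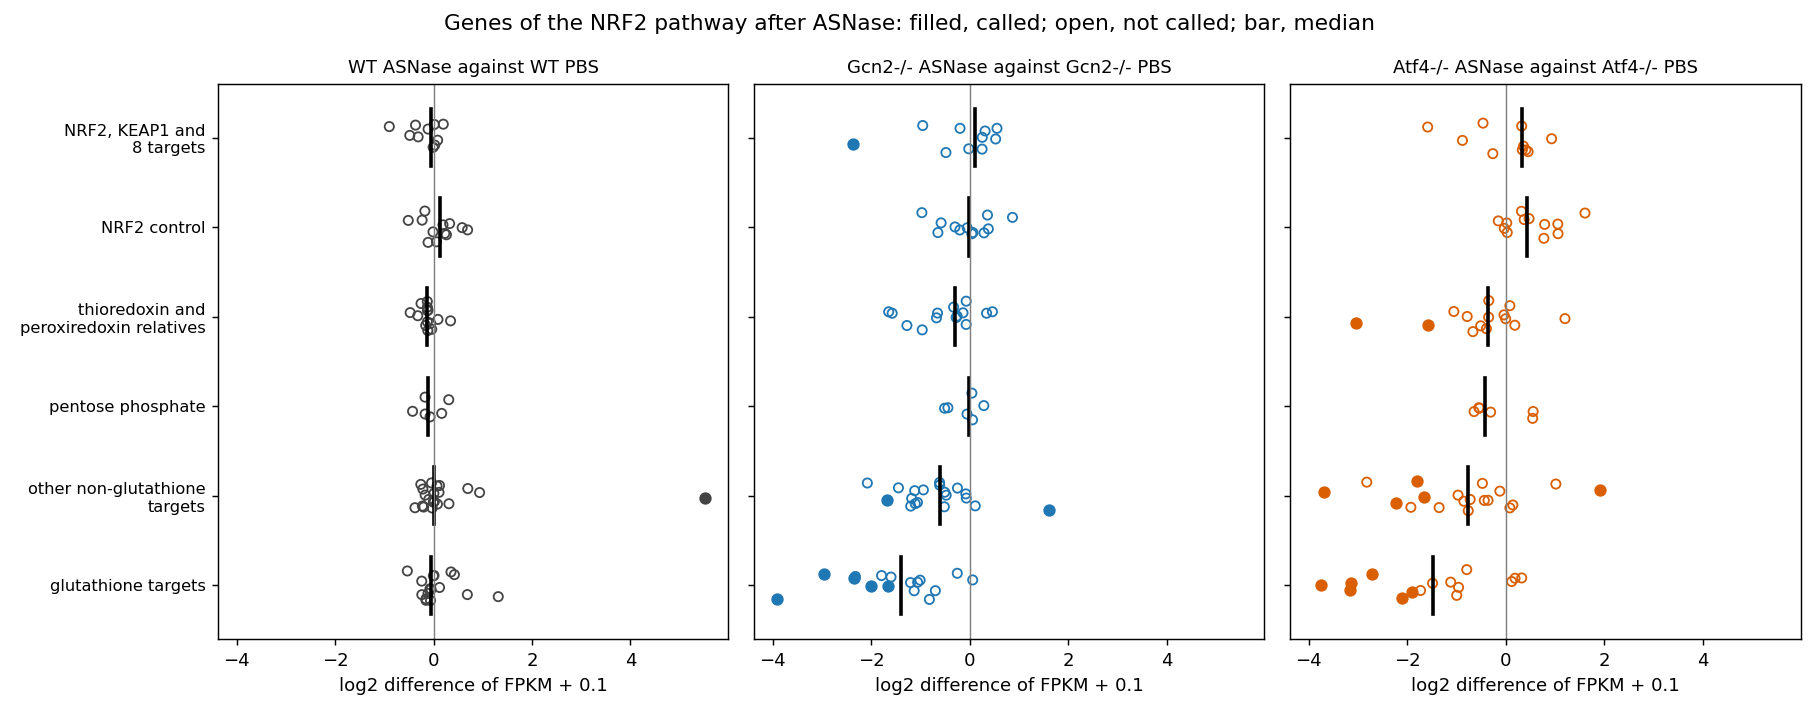
Log2 difference of FPKM + 0.1 between ASNase and PBS for each eligible gene, by list (rows) and strain (panels); filled points were called, open points were not, and black bars are list medians, with vertical scatter added for legibility. In the knockouts the glutathione targets have medians of -1.40 and -1.48, while NRF2, KEAP1 and the 8 targets have medians of 0.12 and 0.33.

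The expression profiles most like that of *Nfe2l2* over the 6 groups, by the root mean square distance of centred log2 values among 9814 genes, were those of *Polr2m* (0.033), *Urm1*, *Ubl3*, *Nsun2* and *Sec24b* (0.041). For *Nqo1* they were *Coq7* (0.116), *Snrnp25*, *Sulf2*, *Pik3c2a* and *Hscb* (0.217). Both profiles span 6 group values, and nothing of shared control follows from the distance.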

How the data were processed

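Liver RNA-Seq of 18 mice in 6 groups of 3 was used. The authors prepared poly-A libraries, aligned reads to mm10 with TopHat and Bowtie, merged transcripts with Cufflinks and Cuffmerge, and ran Cuffdiff. The deposited table holds FPKM, 1 value per gene and group with interval bounds. Linear models planned for single libraries could not be fitted to such values, and each group then counts as 1 value. Groups came from the sample labels. Eligible genes had estimates above 0 with status OK in both groups and over 3 FPKM in at least 1, and calls were made as stated above. List genes were named when called in at least 1 ASNase comparison, at most 6 per list by size. Exceptions are *Mafk*, *Sqstm1*, *Syvn1*, *Bach1*, *Cbr1*, *Gstm2*, *Gstm4*, *G6pd2*, *Ly6g*, *Emr1*, *Adgre1* and every hepatocyte marker named. Genes and lists were chosen with earlier results of these data known. The calling script was tested on simulated data. Promoter sequences are from RefSeq (GRCm38.p6) and gene positions from GENCODE M21. Analyses used Python 3.11.15, pandas 2.3.3 and numpy 2.4.6. Alternatives were a pseudocount of 1, other FPKM and fold limits, no fold limit, a combined-error rule and median-ratio scaling.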

Additional observations from a re-analysis of the deposited data

How the results depend on the processing

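No paired analysis was possible because the table holds 1 value per group, and for the same reason no replicate could be left out. Counts over the 10 genes were equal to the value reported or within 1.5 times of it in 64 of 67 recomputations. Most of these counts were 0 and stayed at 0, so this share mostly restates that few calls were made. With a combined error in place of separate intervals, 1 of the 10 genes was called after ASNase in Atf4-/- livers, *Osgin1*, lower, where 8.94% of all genes were called. With a fold limit of 1, and with no fold limit, 1 of the 10 genes responded differently between strains, *Osgin1*, by -1.47 between Gcn2-/- and WT livers. Of the other 296 recomputed values, 5 moved, all with a pseudocount of 1, and 0 reversed. Scaling moved a group by at most 0.049 on the log2 scale. The intervals set the limit: the median change needed to separate them was smallest for *Keap1*, at 2.38-fold, and could not be reached for *G6pdx*.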
